A study of Saccharomyces cerevisiae with 14 samples.

Results

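Wild-type Saccharomyces cerevisiae cells moved into ethanol for 2 h were compared with the same strain growing in glucose. The members are 6 of the series' 14 messenger RNA libraries, chosen by the strain and medium in their labels, 3 from ethanol and 3 from glucose. In the ethanol group, BY4741 cells (MATa his3Δ1 leu2Δ0 met15Δ0 ura3Δ0) had reached mid-log phase in YEPD, a rich medium with glucose, and were then kept in ethanol for 2 h at 30 °C. In the glucose group, BY4741 cells with the same 4 alleles came from YEPD. The other 8 libraries carry a deletion of FPT1, 4 per medium. They count in the filter on low values, in the alternative scalings and in the model's spread between replicates. They also serve as a comparison at the end. BY4741 is a haploid laboratory strain that cannot make leucine, methionine, histidine or uracil. The labels mention no glucose culture that was moved and put back into glucose, so the effects of the new carbon source, of the loss of glucose, of the transfer and of the elapsed time cannot be told apart.

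Yeast that is given glucose ferments it to ethanol and keeps the genes of respiration, of gluconeogenesis and of other carbon sources repressed. When only ethanol is left, it is oxidised through acetaldehyde and acetate to acetyl-CoA. Acetyl-CoA is burnt in the mitochondria, and through the glyoxylate cycle and gluconeogenesis it also supplies the sugar phosphates that growth needs. Glucose acts through the kinase Snf1 and the repressor Mig1, through the sensors Snf3 and Rgt2, and through protein kinase A and TOR, which also set how many ribosomes are made.

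Expression was given as FPKM (fragments per kilobase of gene, scaled to the mapped fragments of the library), as the authors deposited them. The read depth is not stated. The best step found among the low values of 13 to 26 long genes in each wild-type library left 76.9% to 94.1% of them within 0.15 of a whole read, from too few genes to recover reads, so the depth was treated as unknown. FPKM summed to 1957369, 1933052 and 1913199 in ethanol, against 1715527, 1783841 and 1739669 in glucose. Reading frames without an entry in the annotation held 2.07% to 2.30% of this sum in ethanol and 0.91% to 1.09% in glucose. FPT1 read 136, 150 and 158 FPKM in wild-type ethanol libraries and 52.4, 51.9 and 51.9 FPKM in wild-type glucose libraries, and at most 0.412 FPKM in the deletion libraries. Of the deleted marker genes, LEU2, MET17 and URA3 were listed at 0 in each library, and HIS3, of which this allele leaves a part, read 59.7 to 94.8 FPKM in wild type. The MATa pheromone receptor gene STE2 read 336 to 972 FPKM, and both MATalpha pheromone genes, MF(ALPHA)1 and MF(ALPHA)2, stayed at or below 4.07 FPKM. STE3, the receptor of MATalpha cells, read 12.4, 9.07 and 8.58 FPKM in ethanol, against 2.36, 2.63 and 1.97 FPKM in glucose.

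Ethanol replicate 3 lay nearer to glucose than ethanol replicates 1 and 2. On the first principal component of log2(FPKM + 1), which held 87.0% of the variance of the 6 libraries, the ethanol libraries lay at -55.2, -56.6 and -44.0 and the glucose libraries at 50.6, 52.0 and 53.2. The second axis (6.84%) placed ethanol replicates 1 to 3 at 16.06, -23.3 and 8.56, with replicate 2 far from both others. Glucose replicates 1 to 3 lay there at -12.65, 15.25 and -3.92. Of 2100 genes that passed the test with a change of at least 1 on the log2 scale, replicate 3 was the ethanol library nearest to glucose for 1526 genes (72.7%), replicate 1 for 404 and replicate 2 for 170. Among the genes of this group that rose, the median log2 distance from the glucose mean was 1.64, 1.72 and 1.51 in ethanol replicates 1 to 3, and among those that fell it was -1.61, -1.65 and -1.31.

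Changes are differences of mean log2(FPKM + 1), ethanol minus glucose, from a limma model fitted to all 14 libraries, and a call means a Benjamini-Hochberg adjusted p below 0.05 over 6267 tested genes. Ethanol against glucose gave calls for 75.3% of these genes, 50.5% higher in ethanol and 24.8% lower. A rise of at least 1 was called for 23.4% and a fall of at least 1 for 10.1%. The median change of all tested genes was 0.31, and this shift depends on how libraries are scaled. Setting the library medians equal gave 2343 genes higher and 2362 lower (median -0.01), quantile normalization 2206 and 2503 (median -0.06), and equal FPKM totals 2698 and 1800 (median 0.17). Calls of the genes named below, and the directions of those called, hold under these 3 scalings unless the text says otherwise. Most genes named as without a call lie below the median of all genes. Of these ACS2, ACT1, ADH1, CDC33, DOT6, ESF1, GID12, HSC82, PGI1, PGM1 and PHO84 were called lower under median scaling, and FTR1 under quantile normalization. The direction of HYP2 and TPI1 was lower under median scaling and higher under quantile normalization, which also called GPM1 and TDH3 higher. Values written as mean ± SD are over 3 libraries per medium. In bulk RNA, fewer transcripts per cell and fewer cells with the transcript cannot be told apart. The labels do not say that replicates were separate cultures, and the p-values then reflect only how these libraries vary.

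The composition of the messenger pool moved most at the ribosome. Transcripts of the 137 cytosolic ribosomal protein genes made up 19 ± 3.27% of all FPKM in ethanol, against 40.9 ± 1.27% in glucose (SD, n = 3 each). A group of 17 genes of respiratory growth and stationary phase went the other way and made up 2.75 ± 0.331% of all FPKM in ethanol, against 0.0395 ± 0.00167% in glucose (SD, n = 3 each), a ratio of 69.6. Most of this ethanol share came from a single member, TMA10, whose values are given below. Of the 17 genes 16 rose, with a median change of 3.31. The 139 ribosome assembly factors held 0.732 ± 0.124% of all FPKM in ethanol, against 2.43 ± 0.0591% in glucose (SD, n = 3 each). All ethanol libraries lay on one side of all glucose libraries in each of the 3 groups. The same was true of most of the 58 lists, glycolysis and pyruvate decarboxylation among them, so it does not set these groups apart. The exact two-sided permutation test over 3 against 3 libraries gave p = 0.1 for each, the smallest it can give (0.112 after adjustment over 58 lists). The share of the 24 genes of glycolysis and pyruvate decarboxylation moved less, to 3.94 ± 0.21% in ethanol, against 4.33 ± 0.16% in glucose (SD, n = 3 each).

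**Figure D1:**
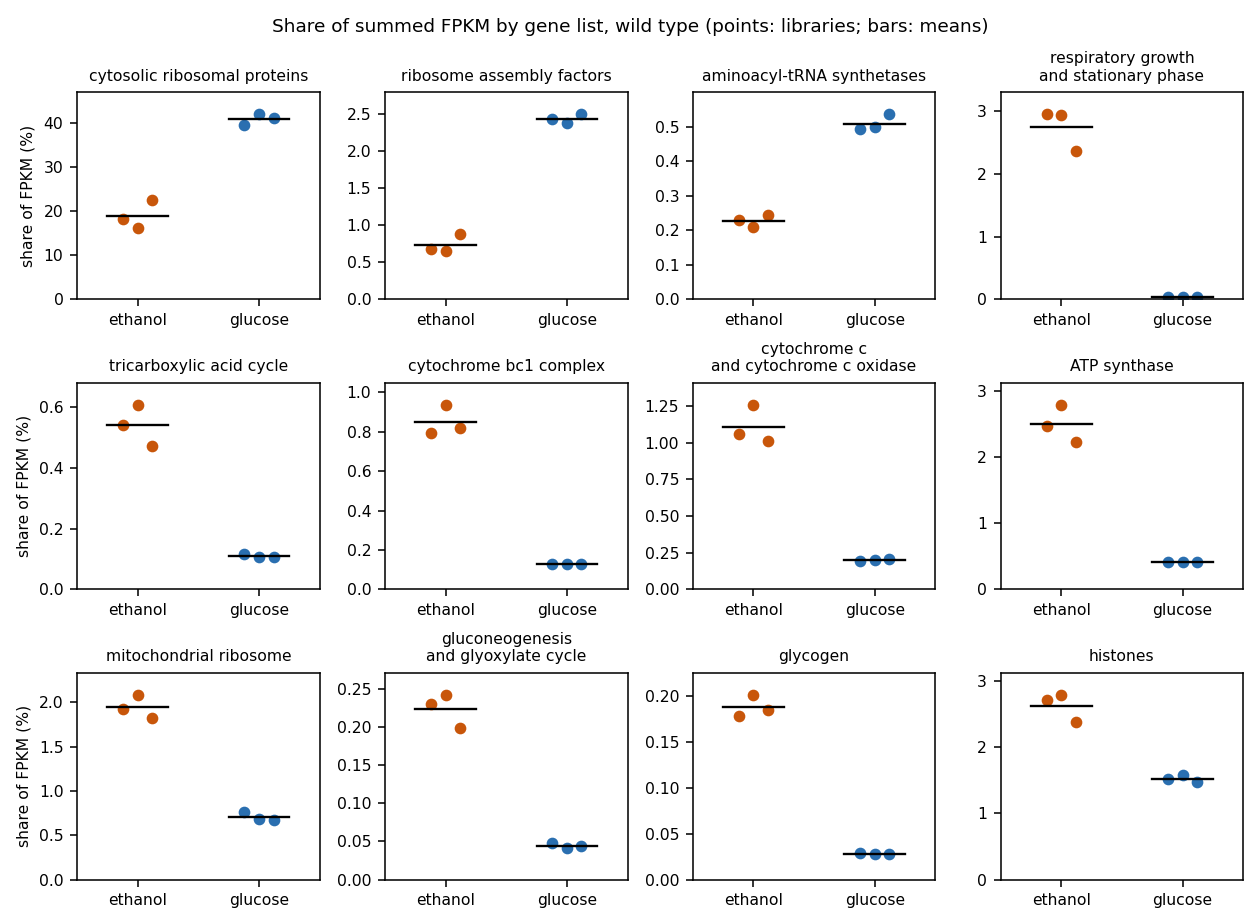
Share of all summed FPKM held by 12 gene lists in each of the 6 libraries (vertical axis, percent, starting at 0 in each panel; points are libraries, bars are group means). The cytosolic ribosomal proteins held 16.3% to 22.6% in ethanol and 39.5% to 42.0% in glucose, and no ethanol library overlapped a glucose library in the panels shown.

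The most abundant transcripts differed as well. SPO24, a small gene first described in sporulation, read 41997, 48226 and 30110 FPKM in ethanol, against 5070, 4873 and 4421 FPKM in glucose. TMA10, whose product associates with ribosomes, read 40783, 38257 and 32750 FPKM in ethanol, against 87.4, 126 and 92.7 FPKM in glucose. STF2, a hydrophilin gene of dehydration tolerance, read 16815, 18271 and 13322 FPKM in ethanol, against 982, 908 and 771 FPKM in glucose. In these genes each ethanol library exceeded every glucose library, and TMA10 rose by 8.51 ± 0.15 (SE, adjusted p = 1.3e-13 by limma). RPS31, which encodes a fusion of ubiquitin and a ribosomal protein, fell to 13198, 11529 and 16115 FPKM in ethanol, against 25827, 29171 and 26670 FPKM in glucose. The cell wall gene CCW12, also among the most abundant, overlapped between the groups with 20596, 19460 and 19752 FPKM in ethanol, against 20082, 19301 and 19094 FPKM in glucose.

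The route from ethanol to acetyl-CoA rose enzyme by enzyme. ADH2, the dehydrogenase that oxidises ethanol, read 694, 803 and 519 FPKM in ethanol, against 3.29, 2.02 and 3.24 FPKM in glucose. ALD4, the mitochondrial acetaldehyde dehydrogenase, read 1583, 1615 and 997 FPKM in ethanol, against 37.0, 34.8 and 38.8 FPKM in glucose, and its cytosolic relative ALD6 read 1495, 1794 and 1339 FPKM in ethanol, against 143, 160 and 168 FPKM in glucose. ACS1, an acetyl-CoA synthetase, read 331, 319 and 194 FPKM in ethanol, against 7.10, 7.24 and 5.75 FPKM in glucose. None of these 4 genes overlapped between the groups, and each had its lowest ethanol value in replicate 3. ACS2, the synthetase of cells on glucose, showed no call at 0.04, with 294, 273 and 274 FPKM in ethanol, against 286, 262 and 268 FPKM in glucose. The fermentative dehydrogenase ADH1 showed no call either and stayed the most abundant of the family, with 8432, 7218 and 6422 FPKM in ethanol, against 7887, 7515 and 7482 FPKM in glucose. In the list of 16 genes of ethanol and acetate use, 10 were higher and 3 lower, against 50.5% and 24.8% of all tested genes, and 10 and 6 under median scaling. ALD5, another mitochondrial acetaldehyde dehydrogenase, was among the lower ones with 96.5, 93.3 and 126 FPKM in ethanol, against 242, 283 and 291 FPKM in glucose.

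Most genes of the glyoxylate cycle and gluconeogenesis rose. Of 13 genes 11 were higher and 2 lower, with a median change of 3.59, against 0.31 over all tested genes. PCK1, which encodes phosphoenolpyruvate carboxykinase, read 298, 338 and 350 FPKM in ethanol, against 5.38, 4.32 and 4.5 FPKM in glucose, a rise of 5.85 ± 0.21 (SE, adjusted p = 5.6e-11 by limma). MLS1, the malate synthase, read 19.7, 22.7 and 21.5 FPKM in ethanol, against 0.971, 0.803 and 0.763 FPKM in glucose, so it remained a low transcript after the rise. ICL1, the isocitrate lyase, read 150, 181 and 264 FPKM in ethanol, against 34.2, 31.7 and 35.9 FPKM in glucose. PCK1, ICL1 and the fructose-1,6-bisphosphatase gene FBP1 had their highest ethanol value in replicate 3, unlike most genes that rose. The members that fell were MAE1, the mitochondrial malic enzyme, with 38.4, 33.3 and 34.0 FPKM in ethanol, against 178, 177 and 181 FPKM in glucose, and PYC2, a pyruvate carboxylase. MDH2, the cytosolic malate dehydrogenase, rose by 0.41, but stood at 0.09 under median scaling and -0.03 under quantile normalization.

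The enzymes FBP1, PCK1, ICL1 and MDH2 are known targets of the GID ubiquitin ligase, which removes them when glucose returns. Of its 10 genes 9 rose in ethanol. The substrate receptor genes GID11, GID10 and VID24 rose by 4.58, 2.68 and 1.35, and the catalytic RING subunit gene RMD5 by 1.66. GID11 read 98.7, 117 and 88.2 FPKM in ethanol, against 2.76, 4.42 and 2.77 FPKM in glucose. GID12 was the member without a call, with 32.7, 34.8 and 36.1 FPKM in ethanol, against 33.6, 32.2 and 32.5 FPKM in glucose.

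Carriers for small acids and for acetyl groups showed some of the widest gaps between media. ADY2, a plasma membrane acetate carrier, read 344, 448 and 303 FPKM in ethanol, against 4.14, 4.86 and 2.29 FPKM in glucose. CRC1, the mitochondrial carrier for acetylcarnitine, read 158, 147 and 91.0 FPKM in ethanol, against 1.26, 1.28 and 0.957 FPKM in glucose, and CAT2, the carnitine acetyltransferase of mitochondria and peroxisomes, read 114, 120 and 58.8 FPKM in ethanol, against 8.31, 8.59 and 6.91 FPKM in glucose. MPC3, the pyruvate carrier subunit of respiring cells, read 1642, 1637 and 1212 FPKM in ethanol, against 27.6, 27.7 and 26.1 FPKM in glucose. The groups were far apart in all 4 genes, and ethanol replicate 3 was the lowest ethanol library in each. Of 18 transport genes 15 rose and 2 fell (median 2.92). OAC1, which carries oxaloacetate and sulfate into mitochondria, fell to 151 ± 15 FPKM in ethanol, against 481 ± 15.8 FPKM in glucose. ATO3, a putative ammonium exporter, fell by 0.66.

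In the tricarboxylic acid cycle 17 of 18 genes rose, with a median of 2.33. The citrate synthase gene CIT1 read 1137, 1234 and 902 FPKM in ethanol, against 72.6, 71.6 and 68.8 FPKM in glucose. LSC2, a subunit of succinyl-CoA ligase, rose by 3.44 and SDH1, the flavoprotein of succinate dehydrogenase, by 4.17. ACO1, the aconitase of the cycle, rose as well, with 501, 482 and 332 FPKM in ethanol, against 105, 90.4 and 85.2 FPKM in glucose. All 9 genes of the pyruvate dehydrogenase complex rose by smaller amounts (median 0.91).

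Each tested nuclear gene in 3 lists of the respiratory chain and ATP synthase rose. This covered 9 genes of the cytochrome bc1 complex (median 2.78), 12 of cytochrome c and its oxidase (median 2.51) and 17 of ATP synthase and its inhibitors (median 2.12). The bc1 complex held 0.849 ± 0.0768% of all FPKM in ethanol, against 0.128 ± 0.00210% in glucose (SD, n = 3 each). Cytochrome c and its oxidase held 1.11 ± 0.133% of all FPKM in ethanol, against 0.201 ± 0.00501% in glucose (SD, n = 3 each). ATP synthase held 2.50 ± 0.285% of all FPKM in ethanol, against 0.416 ± 0.00266% in glucose (SD, n = 3 each). Each share was several times higher in ethanol. INH1, which holds back ATP hydrolysis by the synthase, read 2336, 2404 and 2054 FPKM in ethanol, against 57.2, 43.4 and 68.7 FPKM in glucose. This was a larger rise than that of ATP1, the F1 alpha subunit gene, which read 460, 530 and 452 FPKM in ethanol, against 174, 164 and 177 FPKM in glucose. Among the enzymes that feed electrons into the chain, CYB2, the lactate dehydrogenase, read 244, 379 and 190 FPKM in ethanol, against 5.28, 4.53 and 5.12 FPKM in glucose, and the internal NADH dehydrogenase NDI1 read 322, 398 and 303 FPKM in ethanol, against 34.0, 31.1 and 33.5 FPKM in glucose. No ethanol library overlapped a glucose library in these genes.

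The helpers of the chain rose less evenly. Of 44 assembly factors and translational activators 39 rose and 3 fell. SDH6, an assembly factor of succinate dehydrogenase, rose by 4.21, while RCF2, CBP1 and PET309 fell by 0.34, 0.33 and 0.25. All 11 genes of coenzyme Q synthesis rose (median 1.30), although the rise of COQ10 was -0.03 under both median scaling and quantile normalization. Heme synthesis was divided, with 5 genes higher and 3 lower. HEM13, the oxygen-requiring coproporphyrinogen oxidase, fell to 75.0 ± 10.1 FPKM in ethanol, against 275 ± 7.20 FPKM in glucose. HEM3 fell by 0.62 and HEM1, the first enzyme of the pathway, fell by 0.36, while HEM2 rose by 0.85.

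All 74 genes of mitochondrial ribosomal proteins rose, with changes between 0.49 and 3.13 and a median of 1.48. MRPL39 read 2783, 3286 and 2799 FPKM in ethanol, against 584, 616 and 571 FPKM in glucose. Cytosolic and mitochondrial ribosomal proteins thus moved in opposite directions, with medians of -1.14 and 1.48. In mitochondrial protein import 32 of 34 genes rose by smaller amounts (median 0.55), but under median scaling only 18 were higher and 2 lower. The intermembrane space chaperone genes TIM9 and TIM10 rose by 1.55 and 1.44.

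**Figure D2:**
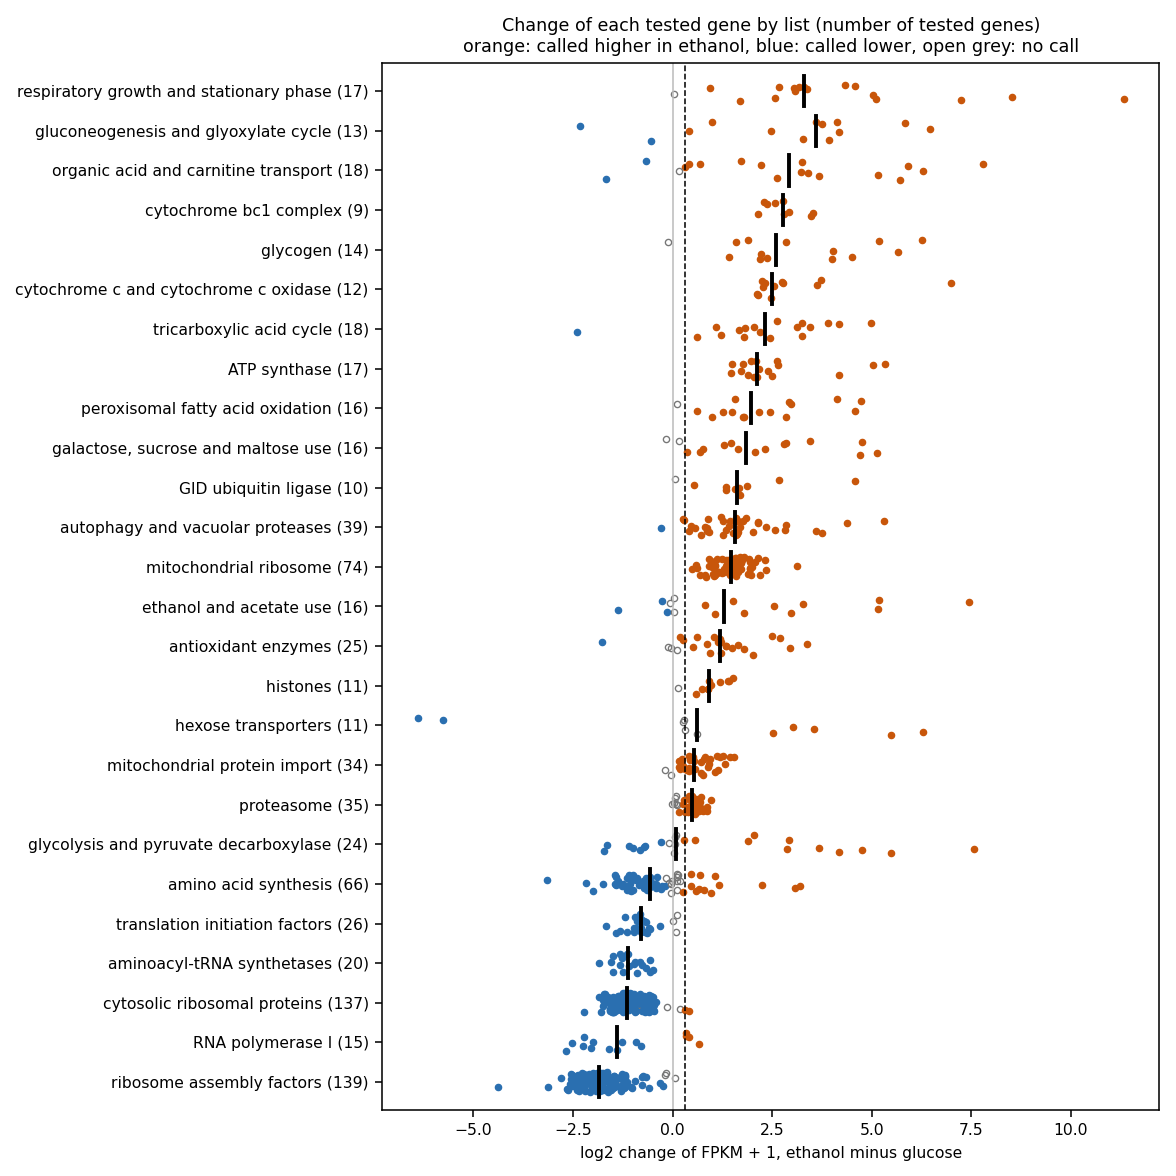
Log2 change of each tested gene, ethanol minus glucose (horizontal axis), in 26 gene lists (rows). Points are genes, filled where called and open where not, short vertical bars are list medians, and the dashed line is the median of all tested genes (0.31). The medians of most lists of respiration and carbon use lie right of the line, and those of the cytosolic ribosome and translation left of it. Glycolysis and pyruvate decarboxylase (0.08) lies left, and the mitochondrial ribosome (1.48) right.

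Hexose transporter genes moved in both directions. The low-affinity carriers HXT1 and HXT3 changed by -6.40 and -5.76, while HXT2, HXT5, HXT6, HXT7 and HXT10 rose. HXT2 read 1526, 1201 and 1383 FPKM in ethanol, against 219, 231 and 262 FPKM in glucose. HXT7 read 471, 455 and 591 FPKM in ethanol, against 4.82, 6.68 and 4.96 FPKM in glucose, and HXT6 read 119, 124 and 181 FPKM in ethanol, against 2.08, 2.63 and 1.78 FPKM in glucose, but these genes are nearly identical in sequence and their reads may have been divided arbitrarily. HXT5 and HXT10 rose from lower levels, by 3.02 and 3.54. HXT4, a high-affinity carrier, overlapped between the groups and showed no call, with 86.3, 64.9 and 106 FPKM in ethanol, against 62.0, 71.2 and 77.1 FPKM in glucose. Of 17 hexose transporter genes 11 passed the filter on low values.

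Glucose phosphorylation was the step of glycolysis with the widest gap between media. HXK1, a hexokinase, read 4682, 4395 and 5564 FPKM in ethanol, against 21.4, 25 and 28.5 FPKM in glucose. GLK1, the glucokinase, read 2220, 2261 and 1847 FPKM in ethanol, against 88.1, 79.1 and 66.4 FPKM in glucose, and its paralogue EMI2 read 1001, 999 and 1102 FPKM in ethanol, against 83.6, 78.6 and 76.1 FPKM in glucose. HXK2, the hexokinase of glucose-grown cells that also acts in repression, read 2402, 2057 and 2536 FPKM in ethanol, against 1596, 1524 and 1603 FPKM in glucose. Its rise of 0.56 was 0.24 and not called under median scaling. Further down, the phosphofructokinase genes PFK1 and PFK2 fell by 0.70 and 0.73, and CDC19, the main pyruvate kinase, fell to 2937 ± 179 FPKM in ethanol, against 6237 ± 213 FPKM in glucose. PFK27 and PFK26 both make fructose-2,6-bisphosphate, the activator of phosphofructokinase. PFK27 fell to 47.2, 35.2 and 74.1 FPKM in ethanol, against 174, 160 and 167 FPKM in glucose, while PFK26 rose to 75.0, 77.9 and 65.2 FPKM in ethanol, against 15.9, 18.2 and 16.7 FPKM in glucose. The abundant enzymes in the middle of the pathway stayed close to their glucose level. TDH3, TPI1, GPM1 and PGI1 had no call, with changes between -0.08 and 0.09. The small changes of PGK1 (0.29) and FBA1 (-0.29) depended on the scaling.

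Isoenzymes were compared within 30 pairs, as the ratio of the first-named gene to the second within a library. Scaling a whole library by 1 factor cannot move this ratio, but quantile normalization can. In 10 pairs the first gene rose and the second fell, in 12 both rose, in 1 the first fell and the second rose, and in 7 at least one gene had no call. No pair had both genes lower. These counts rest on the calls of single genes and depend on the scaling. Under median scaling HXK2 and TKL2 had no call, and HYP2 and ANB1 were both lower. There ACS2, ADH1, PGM1 and HSC82 were also called lower, while their partners ACS1, ADH2, PGM2 and HSP82 stayed higher. The enolase ratio ENO1 over ENO2 was 1.16, 1.36 and 0.96 in ethanol, against 0.11, 0.098 and 0.087 in glucose. ENO1 rose by 1.90 and ENO2 fell by 1.64. The pyruvate carboxylase ratio PYC1 over PYC2 was 8.95, 10.2 and 5.07 in ethanol, against 0.321, 0.304 and 0.256 in glucose. PYC1 read 561, 651 and 361 FPKM in ethanol, against 29.4, 27.6 and 26.9 FPKM in glucose, and PYC2 read 62.7, 64.0 and 71.2 FPKM in ethanol, against 91.5, 90.7 and 105 FPKM in glucose. The phosphoglucomutase ratio PGM2 over PGM1 was 3.53, 4.02 and 3.91 in ethanol, against 0.231, 0.213 and 0.202 in glucose, with no call for PGM1.

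Pairs of the pentose phosphate pathway did not all part. The major genes GND1 and TKL1 fell by 0.75 and 1.26. Their minor partners GND2 and TKL2 rose by 2.60 and 0.71. TKL2 stayed low, at 2.42 ± 0.210 FPKM in ethanol, against 1.09 ± 0.0703 FPKM in glucose, and its rise was not called under median scaling (0.39) or quantile normalization (0.45). In the transaldolase pair the major gene TAL1 and the minor gene NQM1 both rose, by 0.66 and 3.62, with no call for TAL1 under quantile normalization. ZWF1, the glucose-6-phosphate dehydrogenase, has no partner and rose to 284 ± 5.0 FPKM in ethanol, against 104 ± 6.48 FPKM in glucose. Of the ADP/ATP carriers, PET9, the aerobic form, read 1335, 1575 and 1312 FPKM in ethanol, against 370, 367 and 398 FPKM in glucose, and AAC3, the hypoxic form, read 7.05, 6.02 and 10.7 FPKM in ethanol, against 56.8, 49.4 and 52.9 FPKM in glucose. The hypoxic translation factor gene ANB1 also fell, to 36.4 ± 4.51 FPKM in ethanol, against 187 ± 18.8 FPKM in glucose, while its aerobic partner HYP2 showed no call. In other pairs both the aerobic and the hypoxic gene rose, COX5A and COX5B by 2.11 and 2.54, and CYC1 and CYC7 by 3.72 and 3.63. The oxidase subunit ratio COX5A over COX5B was 0.88, 1.19 and 1.08 in ethanol, against 1.57, 1.24 and 1.41 in glucose, lower in each ethanol library and with no overlap. The cytochrome c ratio CYC1 over CYC7 was 5.52, 5.67 and 4.5 in ethanol, against 6.22, 4.43 and 4.65 in glucose, and overlapped.

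**Figure D3:**
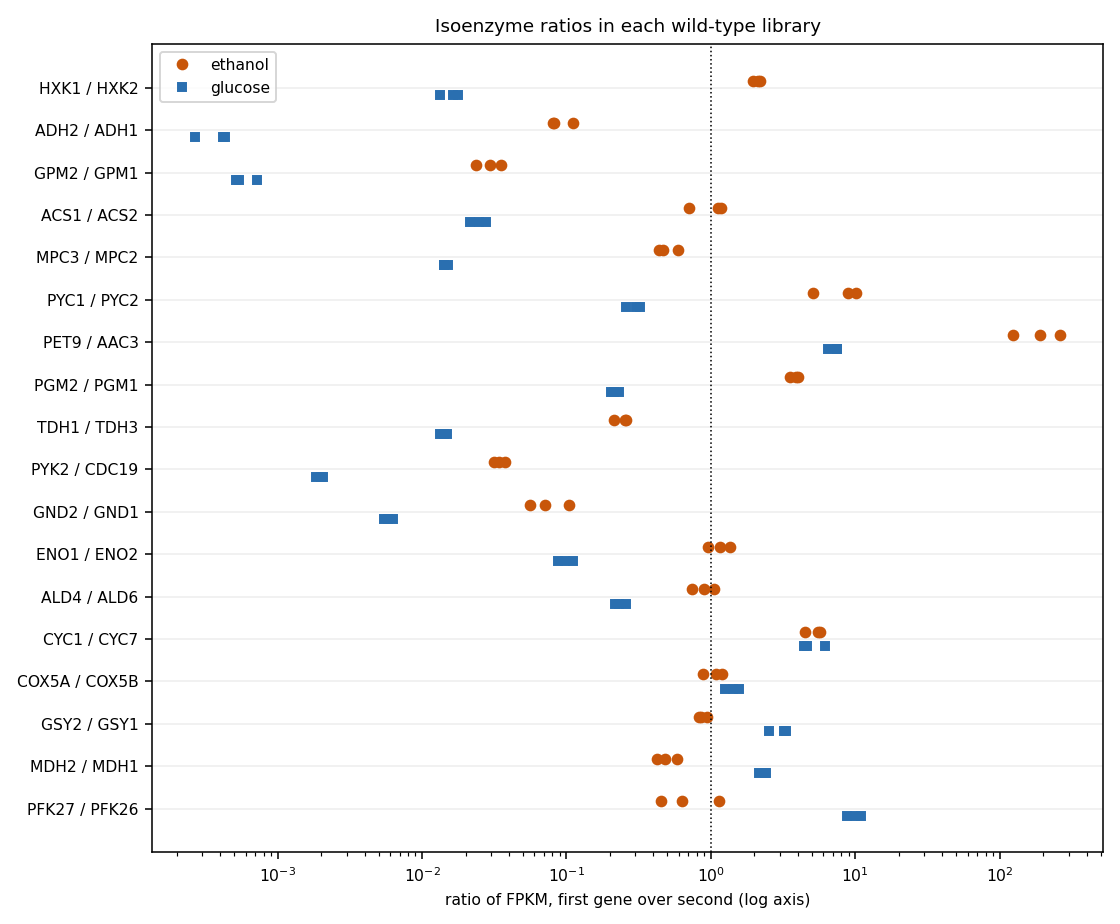
Ratio of the FPKM of the first gene to the second in 18 isoenzyme pairs (rows; horizontal log axis), 1 point per library, ethanol libraries in the upper line of each row and glucose libraries in the lower. The ratio HXK1 over HXK2 was 1.95 to 2.19 in ethanol and 0.0134 to 0.0178 in glucose, while the CYC1 over CYC7 points overlap.

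Genes for the use of other sugars rose. Of 16 genes of galactose, sucrose and maltose use 14 rose. SUC2, the secreted invertase, read 1783, 1730 and 2230 FPKM in ethanol, against 73.2, 62.4 and 74.5 FPKM in glucose. MAL12, a maltase, read 48.5, 44.8 and 47.5 FPKM in ethanol, against 0.476, 0.200 and 0.442 FPKM in glucose, and MAL33, a maltose activator gene, read 399, 457 and 339 FPKM in ethanol, against 15, 12.4 and 15.2 FPKM in glucose. Maltose loci have close copies, so reads may be shared among them. The galactose activator GAL4 rose by 2.31, while GAL1, the galactokinase, read 18.9, 19.7 and 19.8 FPKM in ethanol, against 11.1, 12.3 and 10.1 FPKM in glucose, and its rise of 0.75 was 0.22 and not called under quantile normalization. Of 11 tested glycerol genes 9 rose and 2 fell, and those of glycerol synthesis went both ways. GUT2, which oxidises glycerol-3-phosphate, rose to 251 ± 18.4 FPKM in ethanol, against 18.6 ± 3.01 FPKM in glucose. GPP1, a phosphatase that makes glycerol, fell to 416 ± 28.1 FPKM in ethanol, against 2151 ± 29.4 FPKM in glucose, while its paralogue GPP2 rose by 1.84. Of the glycerol-3-phosphate dehydrogenase genes, GPD1 rose by 1.28 and GPD2 fell by 0.23.

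Reserve carbohydrate genes rose for synthesis and for breakdown alike. Of 14 glycogen genes 13 rose (median 2.61) and all 7 trehalose genes rose (median 1.67). The glycogen synthase gene GSY1 read 358, 387 and 381 FPKM in ethanol, against 6.76, 6.47 and 6.0 FPKM in glucose, the branching enzyme GLC3 read 557, 629 and 582 FPKM in ethanol, against 16.3, 15.7 and 14 FPKM in glucose, and the phosphorylase GPH1 read 619, 748 and 669 FPKM in ethanol, against 6.25, 8.70 and 8.63 FPKM in glucose. PGM2, which links glucose-6-phosphate and glucose-1-phosphate, read 412, 453 and 413 FPKM in ethanol, against 28.3, 25.2 and 24 FPKM in glucose. These 4 genes did not overlap between media. Their ethanol replicate 3 was close to the other two. The trehalose regulatory subunit gene TSL1 rose by 3.81 and the trehalase NTH1 by 1.54.

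Chaperones did not move together. HSP12, a membrane hydrophilin, read 3514, 3367 and 1111 FPKM in ethanol, against 39.4, 49.9 and 95.8 FPKM in glucose, with a wide spread inside both groups, and the small heat shock protein HSP26 read 311, 256 and 198 FPKM in ethanol, against 14.9, 19.1 and 28.1 FPKM in glucose. Inducible and constitutive forms parted. The Hsp70 gene SSA1 rose to 432 ± 57.2 FPKM in ethanol, against 100 ± 5.26 FPKM in glucose, and SSA2 fell to 188 ± 9.52 FPKM in ethanol, against 437 ± 15.2 FPKM in glucose, and HSP82 rose by 1.26 while HSC82 showed no call (these pairs are close in sequence). Chaperones of the ribosome fell. SSB1 fell to 493 ± 92.9 FPKM in ethanol, against 1796 ± 78.0 FPKM in glucose, and its partners ZUO1 and SSZ1 fell by 1.56 and 1.57. The mitochondrial chaperonin genes HSP60 and HSP10 rose by 1.09 and 1.72, and in the list with the cytosolic chaperonin 9 of 17 genes fell. CCT4, a subunit of that chaperonin, fell to 142 ± 9.41 FPKM in ethanol, against 305 ± 15 FPKM in glucose. Of 25 antioxidant genes 21 rose and 1 fell (19 and 4 under median scaling), led by the mitochondrial peroxiredoxin PRX1 with 654, 743 and 574 FPKM in ethanol, against 60.9, 59.1 and 66.1 FPKM in glucose. GPX2 fell by 1.77.

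RGI2, a gene of respiratory growth, read 7699, 7584 and 3771 FPKM in ethanol, against 1.49, 0.544 and 2.39 FPKM in glucose, and its paralogue RGI1 read 4638, 5266 and 5840 FPKM in ethanol, against 150, 172 and 158 FPKM in glucose. RGI2 was close to 0 in glucose and RGI1 was not. Their ethanol replicate 3 was the lowest for RGI2 and the highest for RGI1. SPG4, a stationary-phase gene, read 1105, 1212 and 350 FPKM in ethanol, against 4.69, 4.33 and 3.57 FPKM in glucose, again lowest in replicate 3. Autophagy genes and vacuolar proteases rose in 38 of 39 cases (median 1.57). ATG39, the receptor for autophagy of the nuclear envelope, read 229, 258 and 203 FPKM in ethanol, against 5.67, 4.94 and 3.94 FPKM in glucose. ATG8, the protein of the autophagosome membrane, rose to 336 ± 46.4 FPKM in ethanol, against 64.7 ± 7.68 FPKM in glucose, and the vacuolar protease PRB1 to 397 ± 25.4 FPKM in ethanol, against 89.8 ± 9.04 FPKM in glucose, together with its inhibitor PBI2, which read 6178, 7668 and 4991 FPKM in ethanol, against 280, 327 and 278 FPKM in glucose. The membrane protein gene ATG27 was the one that fell, by 0.29. The proteasome showed no such uniform change. Its 35 genes gave 29 higher and 0 lower, but 18 and 6 under median scaling and 5 and 11 under quantile normalization.

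Genes of peroxisomal fatty acid oxidation rose in 15 of 16 cases. POX1, the acyl-CoA oxidase, read 49.0, 48.7 and 20.6 FPKM in ethanol, against 0.716, 0.401 and 0.668 FPKM in glucose, and POT1, the thiolase, read 26.4, 34.7 and 12.5 FPKM in ethanol, against 0.198, 0.718 and 0.205 FPKM in glucose. Both had their lowest ethanol value in replicate 3. SPS19, a dienoyl-CoA reductase, read 188, 190 and 88.3 FPKM in ethanol, against 4.40, 5.13 and 4.27 FPKM in glucose. Of 27 peroxins 25 rose, PEX11 to 320 ± 65.8 FPKM in ethanol, against 102 ± 10.6 FPKM in glucose, and PEX31 fell by 0.68.

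Genes of protein synthesis fell. Of 137 ribosomal protein genes 132 were lower, 2 higher and 3 without a call. RPL9A read 1011, 775 and 1514 FPKM in ethanol, against 4342, 5441 and 4984 FPKM in glucose, while its copy RPL9B read 1513, 1669 and 2273 FPKM in ethanol, against 1283, 1440 and 1315 FPKM in glucose. The rise of RPL9B was not called under median scaling, quantile normalization or equal totals, and that of RPL15B was -0.01 under median scaling. Ribosome assembly factors had the lowest median of the 58 lists (-1.85), and 136 of 139 fell. The helicase gene DBP2 read 53.7, 50.9 and 106 FPKM in ethanol, against 1403, 1396 and 1441 FPKM in glucose, the nucleolar gene NSR1 read 243, 210 and 378 FPKM in ethanol, against 1743, 1600 and 1722 FPKM in glucose, and RRP12, an export factor of both subunits, read 19.9, 19.2 and 27.2 FPKM in ethanol, against 153, 154 and 168 FPKM in glucose. In each of them the third ethanol library was the least reduced. ESF1 was among the 3 genes without a call, with 281, 307 and 394 FPKM in ethanol, against 317, 299 and 313 FPKM in glucose.

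Most genes of the machinery of RNA polymerase I fell. Among 15 genes of RNA polymerase I 11 fell, such as RPA135, with 33.7, 34.2 and 61.0 FPKM in ethanol, against 275, 252 and 280 FPKM in glucose. Promoter factors were found in both directions. RRN6, RRN7 and RRN11, which form the core factor, changed by -1.27, -1.60 and -2.25, and RRN3, which recruits the polymerase, by -0.78. The upstream activating factor genes RRN10, RRN5, RRN9 and UAF30 rose by 0.66, 0.43, 0.34 and 0.34, but RRN5 turned to -0.12 and RRN9 to -0.05 under quantile normalization, and UAF30 to 0.02 under median scaling, where RRN5, RRN9 and UAF30 had no call. Translation factors fell with few exceptions. Of 26 initiation factor genes 23 fell and none rose, TIF4631 to 93.4 ± 15.7 FPKM in ethanol, against 295 ± 10.7 FPKM in glucose. The cap-binding protein gene CDC33 was without a call at 2090, 2064 and 1999 FPKM in ethanol, against 1872, 2090 and 2110 FPKM in glucose. Of 14 elongation factor genes 11 fell, among them YEF3 with 1158, 1064 and 1500 FPKM in ethanol, against 3592, 3341 and 3368 FPKM in glucose. HEF3, its minor copy, rose to 26 ± 5.31 FPKM in ethanol, against 9.18 ± 0.502 FPKM in glucose. All 20 cytosolic aminoacyl-tRNA synthetase genes fell, with changes between -1.84 and -0.48.

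Regulators of glucose repression moved in both directions within the same pathway. MIG1, the main repressor, rose to 87.5, 117 and 79.1 FPKM in ethanol, against 47.1, 45.0 and 44.0 FPKM in glucose. Its relatives MIG2 and MIG3 fell, MIG2 to 5.58, 7.02 and 4.86 FPKM in ethanol, against 83.2, 75.3 and 80.6 FPKM in glucose, and MIG3 to 7.97 ± 1.94 FPKM in ethanol, against 24 ± 1.87 FPKM in glucose. MTH1 and STD1, paired co-repressors of the hexose transporter genes, went opposite ways. MTH1 read 162, 189 and 213 FPKM in ethanol, against 10.8, 13.5 and 12.1 FPKM in glucose, and STD1 read 21.2, 23 and 26.3 FPKM in ethanol, against 132, 120 and 136 FPKM in glucose. The high-affinity glucose sensor SNF3 rose by 1.96 and the low-affinity sensor RGT2 fell by 0.86. The kinase gene SNF1 changed little (0.36, and 0.04 with no call under median scaling), while SIP2, one of its beta subunits, rose to 72.8 ± 6.80 FPKM in ethanol, against 14.2 ± 0.420 FPKM in glucose, and SIP1, another, fell by 0.50. REG2, a phosphatase subunit of the Snf1 pathway, read 243, 275 and 231 FPKM in ethanol, against 9.84, 9.38 and 11 FPKM in glucose.

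Of 17 activators of growth without glucose 11 were higher (64.7%, against 50.5% of all tested genes) and 3 lower, and under median scaling 10 were higher and 6 lower. CAT8, the activator of gluconeogenic genes, read 31.4, 39.3 and 34.4 FPKM in ethanol, against 0.420, 1.10 and 0.744 FPKM in glucose. ADR1, the activator of ADH2, rose to 67.8 ± 5.04 FPKM in ethanol, against 8.76 ± 0.318 FPKM in glucose, and HAP4, whose product activates respiratory genes as part of the HAP complex, to 265 ± 17.4 FPKM in ethanol, against 104 ± 4.66 FPKM in glucose. USV1, a regulator of non-fermentable growth, read 126, 178 and 152 FPKM in ethanol, against 4.85, 5.79 and 5.44 FPKM in glucose. ERT1, another member, fell by 0.63. In the protein kinase A pathway the catalytic subunit gene TPK2 rose by 1.77, and TPK3 fell by 0.89. RAS2 rose by 1.14 and RAS1 fell by 0.65. XBP1, a repressor of quiescent cells, read 55.1, 79.7 and 56.1 FPKM in ethanol, against 2.06, 1.48 and 1.54 FPKM in glucose. Among regulators of ribosome genes, TOD6, a repressor that recognises the PAC element, read 7.58, 8.84 and 13.9 FPKM in ethanol, against 97.0, 92.9 and 99.3 FPKM in glucose. DOT6, its paralogue, showed no call, with 83.0, 96.7 and 108 FPKM in ethanol, against 101, 93.7 and 98.5 FPKM in glucose. IFH1, the co-activator of ribosomal protein genes, fell to 23 ± 4.45 FPKM in ethanol, against 60.3 ± 3.90 FPKM in glucose, and CRF1, its competitor, rose to 36.1 ± 7.99 FPKM in ethanol, against 4.02 ± 0.375 FPKM in glucose.

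**Figure D4:**
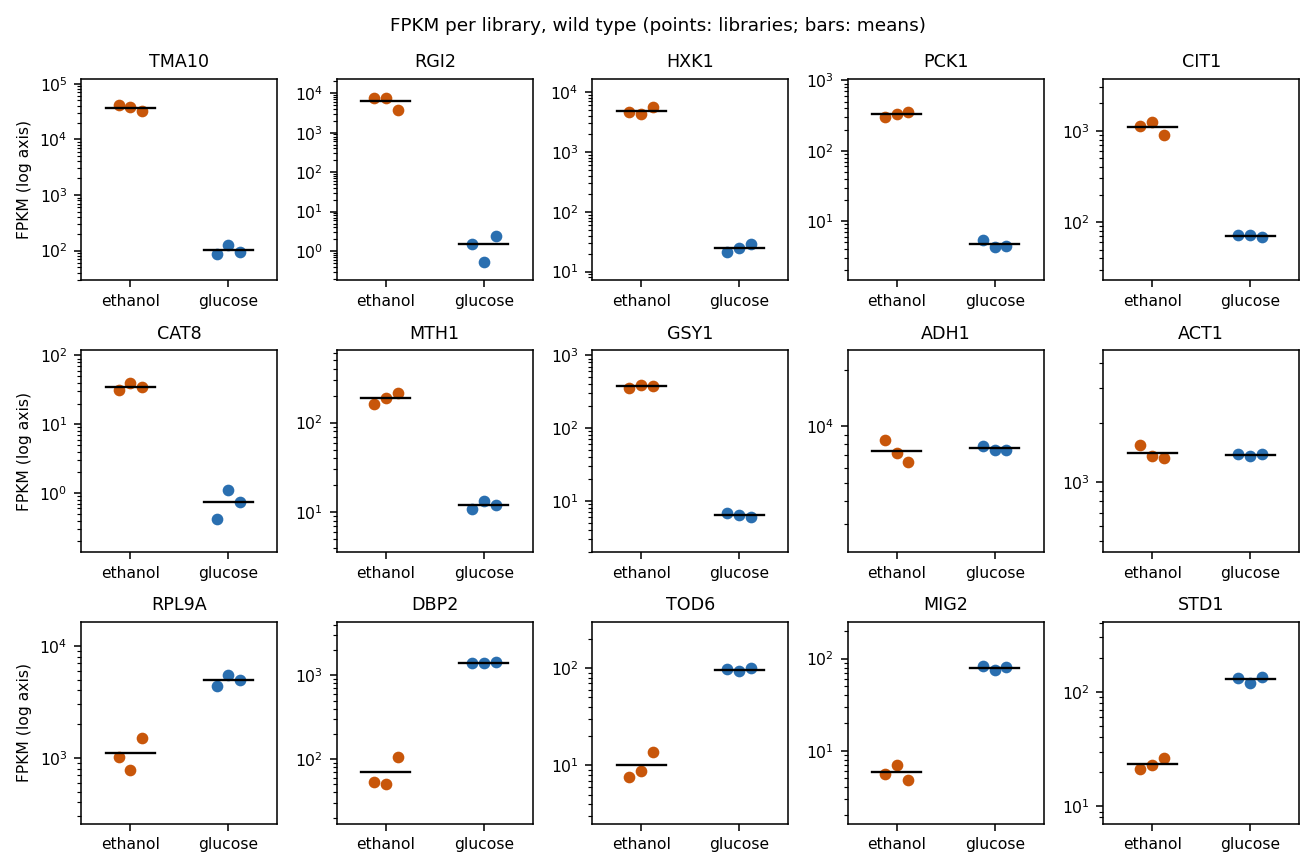
FPKM of 15 genes named in the text in each library (vertical log axis, FPKM; 1 panel per gene, ethanol left, glucose right; points are libraries, short bars are group means). TMA10, HXK1 and CAT8 lie far above glucose in all ethanol libraries, DBP2, TOD6, MIG2 and STD1 lie below, and ADH1 and ACT1 overlap.

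Nitrogen and sulfur genes were divided. Of 66 genes of amino acid synthesis 42 fell and 13 rose. The leucine pathway gene LEU1 fell to 217 ± 11.3 FPKM in ethanol, against 870 ± 34.5 FPKM in glucose, and LEU9 to 28.9 ± 9.51 FPKM in ethanol, against 255 ± 1.73 FPKM in glucose. The branched-chain transaminases parted, with BAT1, the mitochondrial form, at 196, 182 and 239 FPKM in ethanol, against 885, 915 and 956 FPKM in glucose, and BAT2, the cytosolic form, at 891, 764 and 482 FPKM in ethanol, against 146, 143 and 141 FPKM in glucose. GDH2, the glutamate dehydrogenase that releases ammonium, read 606, 614 and 671 FPKM in ethanol, against 72.1, 66.3 and 64.3 FPKM in glucose. Of 24 sulfur and methionine genes 20 rose, led by the regulator gene MET28 (3.89) and MET2 (3.62), while SAM1 fell by 1.13. Of 20 amino acid permease genes 15 rose and 1 fell, but 12 and 5 under median scaling and 10 and 7 under quantile normalization. PUT4, the proline permease, rose by 4.34. In purine and one-carbon metabolism 14 of 22 genes fell, IMD4 to 142 ± 34.0 FPKM in ethanol, against 891 ± 7.05 FPKM in glucose. The glycine cleavage gene GCV1 rose to 705 ± 125 FPKM in ethanol, against 103 ± 0.508 FPKM in glucose.

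Several other pathways held strong changes in single members and no common direction. Of 25 ergosterol genes 8 rose (32%, against 50.5% of all tested genes) and 11 fell (44%, against 24.8%). Under median scaling 4 rose and 17 fell. ERG28 rose by 2.20 and ERG11 fell by 1.21. In iron and copper use the cell wall mannoprotein gene FIT2 rose to 2350 ± 282 FPKM in ethanol, against 131 ± 17.9 FPKM in glucose, and FIT3 to 2875 ± 268 FPKM in ethanol, against 235 ± 14.9 FPKM in glucose. FTR1, the iron permease, showed no call at 0.05. ISU1 and ISU2, the paired scaffold genes of iron-sulfur clusters, changed by 1.26 and -1.60. In the phosphate regulon PHO89, a sodium phosphate symporter, rose to 1439 ± 241 FPKM in ethanol, against 133 ± 1.49 FPKM in glucose, and PHO84, the main phosphate carrier, showed no call. PHO3, a phosphatase gene repressed by thiamine, fell to 46.9 ± 12.6 FPKM in ethanol, against 367 ± 15.5 FPKM in glucose.

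Counts for genes of division depended on the scaling. Of 21 cyclins and cell cycle regulators 11 rose (52.4%, against 50.5% of all tested genes) and 2 fell (9.52%, against 24.8%). Under median scaling 7 rose and 9 fell, and under quantile normalization 5 and 10. CLN3, the cyclin that starts the cycle, fell to 38.2 ± 8.30 FPKM in ethanol, against 76.8 ± 6.02 FPKM in glucose, and CLN1, a later G1 cyclin, rose to 152 ± 16.4 FPKM in ethanol, against 53.8 ± 1.22 FPKM in glucose. Of 11 histone genes 10 rose (median 0.92), HTA1 to 9587 ± 970 FPKM in ethanol, against 3605 ± 411 FPKM in glucose, and the list held 2.63 ± 0.216% of all FPKM in ethanol, against 1.53 ± 0.0600% in glucose (SD, n = 3 each). Of 31 genes of DNA replication 12 rose (38.7%, against 50.5%) and 7 fell (22.6%, against 24.8%). Under median scaling 7 rose and 16 fell, and under quantile normalization 6 and 18. CDC6, which loads the replicative helicase, fell to 14.7 ± 3.10 FPKM in ethanol, against 34.5 ± 2.52 FPKM in glucose. Of 30 tested genes of meiosis and sporulation 18 rose (60.0%, against 50.5% of all tested genes) and 6 fell, but 10 rose and 10 fell under quantile normalization. RIM4, a meiotic RNA-binding protein gene, rose to 24.1 ± 3.46 FPKM in ethanol, against 1.28 ± 0.344 FPKM in glucose, and SPO19 fell to 2.47 ± 0.916 FPKM in ethanol, against 41.3 ± 3.73 FPKM in glucose. In the cell wall TIR1 fell to 27.1, 14.9 and 53.2 FPKM in ethanol, against 259, 206 and 202 FPKM in glucose, with a wide spread in ethanol, and SPI1, a wall protein of stationary cells, rose to 356 ± 88.4 FPKM in ethanol, against 40.9 ± 2.74 FPKM in glucose. Among 10 genes often used as references ACT1 showed no call, with 1550, 1359 and 1325 FPKM in ethanol, against 1381, 1359 and 1380 FPKM in glucose, and PDA1 rose by 0.79.

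Promoter sequences were read for the letters of 7 known elements. The windows cover bases 350 to 51 before the annotated start codon of 6001 protein-coding genes in the RefSeq sequence of assembly R64, and both strands were searched. The elements are PAC (GATGAG) and RRPE (AAAAATTT), known from ribosome assembly genes, STRE (AGGGG), read by Msn2 and Msn4, CSRE (CC and CCG with 6 bases of any kind between them), read by Cat8 and Sip4, the HAP box (CCAAT), GCN4 (TGACTC) and PACE (GGTGGCAAA), read by Rpn4. Elements were searched independently, so the same bases may count for more than 1 element. The 5 windows below are shown because their genes carry a change described above and belong to lists in which the element was frequent. Capitals mark the matches of the elements named, PAC and RRPE in RRP12 and DBP2, STRE in PGM2, the HAP box in CIT1 and CSRE in CRC1. In R64 coordinates they are chrXVI:529373-529672 on the plus strand for RRP12, chrXIV:413289-413588 on the plus strand for DBP2, chrXIII:477657-477956 on the minus strand for PGM2, chrXIV:631112-631411 on the minus strand for CIT1 and chrXV:514329-514628 on the minus strand for CRC1, each printed 5′ to 3′ on the strand of its gene.
RRP12: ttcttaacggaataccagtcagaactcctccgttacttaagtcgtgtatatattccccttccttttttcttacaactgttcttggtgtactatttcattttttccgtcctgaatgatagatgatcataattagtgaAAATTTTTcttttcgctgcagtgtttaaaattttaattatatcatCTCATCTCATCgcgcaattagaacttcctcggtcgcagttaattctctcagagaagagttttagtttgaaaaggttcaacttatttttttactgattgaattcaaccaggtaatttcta
DBP2: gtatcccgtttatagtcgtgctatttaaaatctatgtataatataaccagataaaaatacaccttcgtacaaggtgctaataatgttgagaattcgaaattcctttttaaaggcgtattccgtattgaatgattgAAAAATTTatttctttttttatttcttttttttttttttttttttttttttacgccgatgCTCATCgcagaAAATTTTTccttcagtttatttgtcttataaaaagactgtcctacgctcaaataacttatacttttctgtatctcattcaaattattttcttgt
PGM2: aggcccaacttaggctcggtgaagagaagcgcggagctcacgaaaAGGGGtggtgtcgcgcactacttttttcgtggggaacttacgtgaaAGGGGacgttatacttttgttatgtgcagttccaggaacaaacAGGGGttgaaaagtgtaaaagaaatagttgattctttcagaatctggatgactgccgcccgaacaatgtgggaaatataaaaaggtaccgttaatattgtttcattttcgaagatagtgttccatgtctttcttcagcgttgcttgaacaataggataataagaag
CIT1: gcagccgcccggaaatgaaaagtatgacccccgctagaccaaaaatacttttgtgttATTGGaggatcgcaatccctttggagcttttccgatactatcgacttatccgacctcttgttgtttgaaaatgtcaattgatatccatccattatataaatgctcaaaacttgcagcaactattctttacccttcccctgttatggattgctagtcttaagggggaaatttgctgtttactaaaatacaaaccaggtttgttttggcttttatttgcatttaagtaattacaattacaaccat
CRC1: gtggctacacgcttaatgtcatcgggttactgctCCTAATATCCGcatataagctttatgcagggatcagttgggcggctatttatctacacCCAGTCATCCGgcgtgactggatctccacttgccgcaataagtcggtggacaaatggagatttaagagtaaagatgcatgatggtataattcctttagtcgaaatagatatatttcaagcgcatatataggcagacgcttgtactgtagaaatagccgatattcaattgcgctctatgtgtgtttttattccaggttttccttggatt

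In RRP12 and DBP2, PAC and RRPE matches stood together. In DBP2 a PAC match began 155 bases and RRPE matches 215 and 144 bases before the start codon, and in RRP12 PAC matches began at 169 and 164 and an RRPE match at 214 bases. PAC was found in 84.2% and RRPE in 81.3% of the 139 promoters of ribosome assembly factors, against 19.8% and 15.6% of all promoters. In RNA polymerase I genes PAC was found in 73.3%. RRPE without frequent PAC was seen in translation genes, with 80.0% of aminoacyl-tRNA synthetase and 78.6% of elongation factor promoters, of which 20% and 14.3% held PAC. Cytosolic ribosomal protein genes, which fell too, held PAC in 14.6% and RRPE in 14.6%, close to all promoters.

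PGM2 held STRE matches that began 305, 259 and 216 bases before the start codon. STRE was found in 78.6% of glycogen and 85.7% of trehalose promoters, against 22.9% of all. The HAP box, seen in CIT1 at 293 bases, was found in 88.9% of tricarboxylic acid cycle, 88.9% of bc1 and 88.2% of ATP synthase promoters, against 42.9% of all. CRC1 held CSRE matches at 316 and 258 bases, and CSRE was found in 44.4% of promoters of organic acid and carnitine transport genes, against 12.7% of all. It was found in 15.4% of gluconeogenesis and glyoxylate cycle promoters, which hold known targets of Cat8, and in 24.8% of the promoters of cytosolic ribosomal proteins, which fell. PACE was found in 77.1% of proteasome promoters, against 1.22% of all, and GCN4 in 68.2% of amino acid synthesis promoters, against 8.07% of all.

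The same letters were counted over all genes by their change. Among 599 genes that fell by at least 1, PAC was found in 48.1% and RRPE in 49.1%, against 15.3% and 11.7% of 1151 genes without a call. Among 1396 genes that rose by at least 1, STRE was found in 38.8%, against 17.9% of those without a call, and RRPE in 7.59%. CSRE was found in 17% and 13% and the HAP box in 47.7% and 40% of the same groups. A match is only a run of letters, and binding was not measured.

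**Figure D5:**
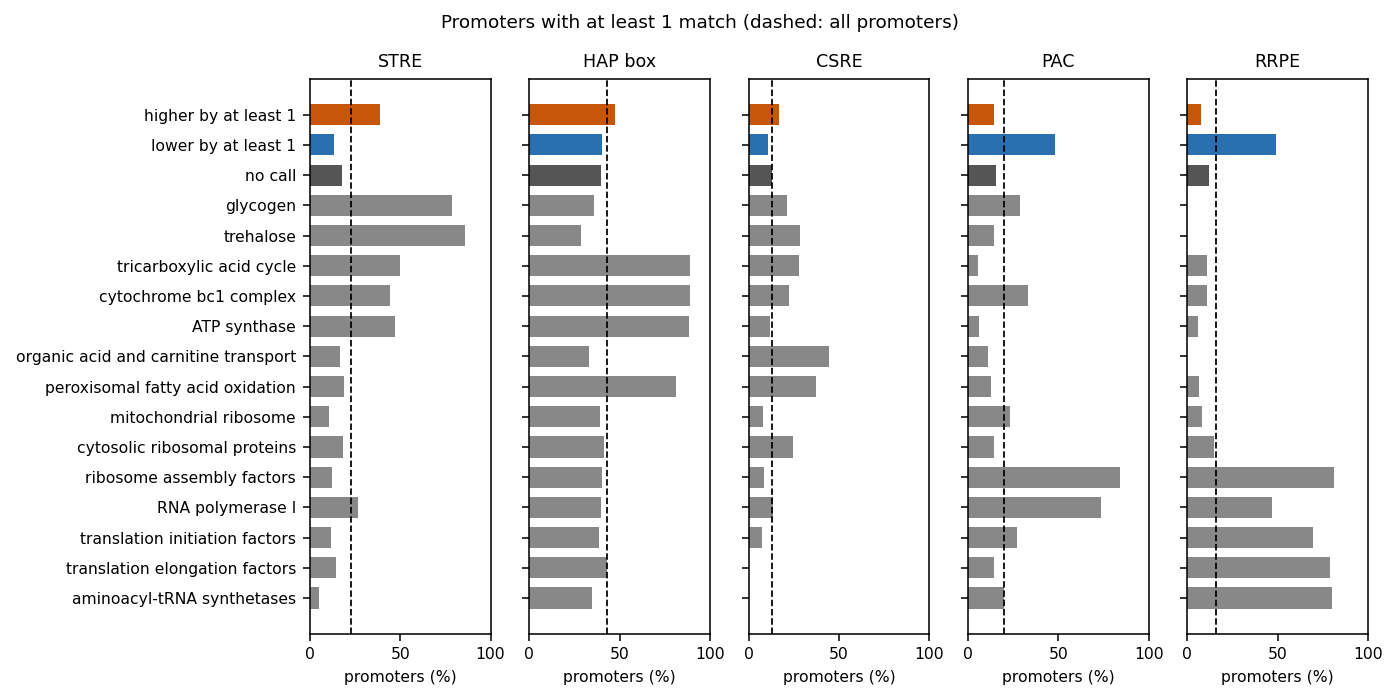
Percent of promoters with at least 1 match (horizontal axis) to 5 elements (panels) in 14 gene lists, and in genes called higher or lower by at least 1 and genes with no call (rows). The dashed line in each panel is the percent over all 6001 promoters. PAC and RRPE bars are longest for ribosome assembly factors (84.2% and 81.3%), and HAP box bars for the tricarboxylic acid cycle and the bc1 complex (88.9% each).

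The same move into ethanol in cells without FPT1 served as a comparison. Limma called 0 of 6267 genes for the difference between the wild-type and the deletion response (0%). Of the 6267 genes 1603 had an unadjusted p below 0.05, more than this threshold would give if no gene differed. The absence of calls does not show that the responses were alike. No other tool was run. This count depended on the third wild-type ethanol library, and 654 genes were called when it was left out. Without the second wild-type glucose library 1 gene was called, TMA10, which was singled out after its value was seen. For FPT1 itself, which is deleted in the second strain, the difference was 1.39 ± 0.21 (SE, adjusted p = 0.079 by limma).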

How the data were processed

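Messenger RNA libraries, poly(A)-selected with a stranded kit and read as single reads per the labels' protocols, were aligned with STAR 2.7.1a to sacCer3 per the submitters' processing notes. The authors deposited FPKM per gene, and the program, annotation and strand setting behind these FPKM are, for the sources used here, not given. The table held 6664 genes in 14 samples, of which 5989 had an entry in the RefSeq annotation of R64 and 675 did not. Depth per library is not stated, and replicate number limits precision. Groups came from the strain and medium in the labels, and 0 sample columns went unused.

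Values were analysed as log2(FPKM + 1), so changes of low genes are understated. The 6267 genes that reached 1 FPKM in 3 or more samples were tested with limma 3.58.1 in R 4.3.3 (group means over all 14 samples, trended empirical Bayes, two-sided). P-values were adjusted by Benjamini-Hochberg over all tested genes, with a threshold of 0.05. The script was tested on simulated data. Share sums over 58 gene lists were tested between media with two-sided exact permutation (SciPy 1.17.1) and p-values adjusted over the lists. Members of 30 isoenzyme pairs and 7 promoter elements were described with no test. The lists, pairs and members were chosen with earlier results of these data known.

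Genes were named by rule: both members of each pair, up to 4 called members with the largest rise and 4 with the largest fall per list, all members of small, regulator, hexose, ethanol, gluconeogenesis, transport and glycolysis lists, called members against a list's direction, the 25 largest rises and falls, the 20 most abundant genes per medium, strain and mating-type markers and FPT1. ACO1, ATG8, ATP1, CDC33, ESF1, FTR1, GAL1, GAL4, HSP10, HSP60, ISU1, PHO84, PRB1, RGI1, RRN3, RRN6, RRN7 and SSA2 were chosen after their values were seen. Alternatives were other pseudocounts (0.1 and 5), filters, scalings, a fit over the 6 wild-type samples, a replicate block, no variance trend and leaving out each replicate. Some genes are not reported here.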

Additional observations from a re-analysis of the deposited data

How the results depend on the processing

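Of 17 alternative settings, 2 (equal FPKM totals, annotated genes only) were chosen after seeing the data. Of 3618 values of 213 named genes, 38 lost their call, 15 gained one and 25 changed sign. The other 3540 kept their side of the threshold. A change of sign was counted only where the gene was called in the main or the alternative setting. Genes without a call in both could change sign uncounted. The counted sign changes came from scaling. They were, under median scaling, ACS2 (-0.28), ACT1 (-0.28), CDC33 (-0.30), COQ10 (-0.035), ESF1 (-0.26), GID12 (-0.25), HSC82 (-0.27), HYP2 (-0.30), PGK1 (-0.031), PHO84 (-0.30), RPL15B (-0.010) and TPI1 (-0.29), and under quantile normalization, ACS2 (-0.40), ACT1 (-0.32), COQ10 (-0.031), ESF1 (-0.36), FBA1 (0.001), FTR1 (-0.38), GID12 (-0.24), HSC82 (-0.38), MDH2 (-0.028), PHO84 (-0.38), RPL15B (-0.078), RRN5 (-0.12) and RRN9 (-0.048). Genes lower in ethanol numbered 1555, but 2362 under median scaling and 2503 under quantile normalization. Leaving out each replicate gave 4507 to 4660 called genes, 3031 to 3146 higher and 1440 to 1560 lower. Of 1972 list counts 92 moved by over 1.5 times, and 0 of 91 share differences changed sign. The alternatives for shares were a denominator of annotated genes and leaving out 1 library. Where the groups do not overlap, leaving out 1 library cannot change the sign. The difference between wild-type and deletion responses had 0 called genes, and 1, FPT1, under a pseudocount of 5, no filter on low values, no mean-variance trend and annotated genes only. Leaving out each replicate gave 0 to 654. The cause was not tested.

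The values gave no sign that same-numbered samples were paired. Deviations from means of 3 libraries cannot show whether such samples came from the same culture. Deviations from the group means of same-numbered ethanol and glucose samples correlated at -0.29, -0.42 and -0.063, and no sample correlated best with its own number. A replicate block called 4572 genes, 3089 higher and 1483 lower, of which 4541 were among the 4718 called without it, and 0 for the difference of responses. With FPKM alone, genes near 1 FPKM rest on few reads, and no counting error can be given.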
